A study of Mus musculus with 4 samples.

Results

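Splicing factor genes of 4 families were read in RNA-seq libraries of mouse Th2 cells, the helper lineage of CD4 T cells known for interleukin-4 and interleukin-13. The rows were those of protein-coding genes whose symbols begin with Hnrnp, Srsf, Sf3a, Sf3b or Snrp, together with Phykpl and Mettl23, which lie on the other strand from Hnrnpab and Srsf2. They made up 54 of the 50600 rows of the tables: 20 hnRNP rows, 11 SR rows, 9 SF3 rows, 12 Snrp rows and the 2 rows opposite. All 4 libraries belonged to 1 group, primary Th2 cells of strain C57BL/6NJ, numbered as biological replicates 1 to 4. The file headers name 48 hours of a time course of Th1 and Th2 cells, no genotype or agent beyond the Th2 differentiation is named, and age was unknown and sex not collected. All libraries carry the same donor identifier but separate biosamples, so the spread between replicates may be technical, and p-values measure only that spread. Other time points and Th1 cells were not analysed here, so levels were compared within libraries and between replicates.

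The deposited counts totalled 2271993, 2112190, 2204423 and 1785970 in replicates 1 to 4, so 3 counts, the most that a count of 0 allows, stood for 1.32 to 1.68 CPM (counts scaled to the library total). Of 8 T cell genes, 7 reached 1 TPM (counts scaled by exon length and library) in all libraries, with Cd3e (18, 20, 6 and 9 counts) below that level in replicate 3. Most of the 1136 to 1610 counts per library over the list lay in Cd247 (1360, 1364, 1278 and 972), which shares 3007 exon bases with Pou2f1 on the other strand. Of 6 Th2 genes 5 did, and Il5 was at 0 in all libraries. Most of the 226 to 399 counts over that list lay in Ptgdr2 (249, 263, 216 and 147), which shares 1031 exon bases with Ccdc86, and Gata3 also overlaps a row on the other strand. Of the other cell types, 1 of 4 macrophage and monocyte genes (Csf1r, whose exons overlap another row), 0 of 2 CD8 T cell genes and 0 of 3 NK cell genes did. Over these lists the libraries held 1067 to 1457, 2 to 4 and 0 to 1 counts, and Itgam, Adgre1, Ncr1 and Klrb1c were at 0 in all libraries. Nearly all counts of the macrophage and monocyte list lay in Csf1r (1409, 1363, 1457 and 1066). It shares 871 exon bases with Hmgxb3 on the other strand, which had 16, 9, 4 and 9 counts. Of the B cell genes, Cd79a reached 1 TPM in all libraries (14, 8, 4 and 7 counts), and Cd79b and Ms4a1 were at 0.

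Introns are removed from pre-mRNA by the spliceosome, which is built from small nuclear ribonucleoproteins (snRNPs). Snrp genes encode their proteins: the Sm proteins, which form a ring on most of the small nuclear RNAs, and proteins particular to the U1 and U2 snRNPs, which mark the start of the intron and its branch point. SF3a and SF3b are the complexes of the U2 snRNP that hold the branch point. SR proteins, with RNA recognition motifs and a tail of arginine and serine repeats, mostly favour the use of the exons they bind. The hnRNP proteins coat nascent transcripts and often act against exon use. In T cells, splicing changes on activation include those of CD45, for which Hnrnpll is a known regulator.

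Each count in the tables belongs to a row, defined by the exons of a gene on 1 strand. Where exons of rows on both strands share bases, the tables do not say whose transcripts gave the counts, and this was not tested. No source used here says which strand the library kit marks, so whether the strand setting of the counting fits these libraries was not tested either. That limit holds for every level below, also for rows without an overlap, and rows with an overlap held 92.5%, 93.1%, 94.5% and 93.3% of all counts in replicates 1 to 4. A level is therefore the level of the row, which need not be that of the gene's own mRNA. The coding bases that 4 splicing factor genes share with the row opposite are shown here, because over these stretches only the strand assigned to a read pair decides which row it is counted in. They are given 5′ to 3′ on the strand of the splicing factor gene, from GENCODE vM21 transcripts on GRCm38 (mm10). Capitals mark the codons of the RNP1 motif of the RNA recognition motif in Hnrnpab and Srsf2 and the start codon in Hnrnpd. No match to the RNP1 pattern was found in Srsf1. The pattern requires arginine or lysine followed by glycine at its start, so RNP1 motifs of another form would be missed, in Srsf1 or the other genes.
Hnrnpab, coding bases 595 to 684 of 855, chr11:51604400-51604489, reverse strand, opposite Phykpl: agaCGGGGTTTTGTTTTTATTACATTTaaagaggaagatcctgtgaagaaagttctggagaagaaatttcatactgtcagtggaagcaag
Srsf2, coding bases 75 to 362 of 663, chr11:116852568-116852855, reverse strand, opposite Mfsd11: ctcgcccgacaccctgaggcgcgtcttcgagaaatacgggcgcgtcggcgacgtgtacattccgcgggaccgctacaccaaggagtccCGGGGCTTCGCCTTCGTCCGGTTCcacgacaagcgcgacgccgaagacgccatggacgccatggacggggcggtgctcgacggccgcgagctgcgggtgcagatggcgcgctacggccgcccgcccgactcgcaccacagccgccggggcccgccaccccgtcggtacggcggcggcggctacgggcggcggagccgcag
Srsf1, coding bases 71 to 168 of 603, chr11:88047909-88048006, forward strand, opposite Gm11508: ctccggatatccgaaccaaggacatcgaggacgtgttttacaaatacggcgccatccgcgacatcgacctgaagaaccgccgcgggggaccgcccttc
Hnrnpd, coding bases 1 to 151 of 918, chr5:99978474-99978624, reverse strand, opposite Gm17092: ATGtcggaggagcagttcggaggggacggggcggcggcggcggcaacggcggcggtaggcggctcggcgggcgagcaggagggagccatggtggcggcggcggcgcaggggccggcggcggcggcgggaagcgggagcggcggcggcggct
The guanine and cytosine content of these stretches was 36.7% in Hnrnpab, 74.0% in Srsf2, 60.2% in Srsf1 and 82.1% in Hnrnpd. In Hnrnpab the shared stretch holds 1 of the gene's 2 RNP1 matches, and in Srsf2 it holds the only match. The Hnrnpd stretch begins at the start codon and lies ahead of both of that gene's RNP1 matches.

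Nearly all splicing factor rows held counts in every library. At a level of at least 1 TPM, 47 of 52 rows passed in all 4 libraries (18 of 20 hnRNP, 10 of 11 SR, 9 of 9 SF3 and 10 of 12 Snrp), where 21.8% of all 21764 protein-coding rows did. More than 3 counts in every library were held by 49 of 52 rows, and by 5777 of all 21764 protein-coding rows. The rows that did not reach 1 TPM throughout were Hnrnph2, Hnrnpr, Srsf12, Snrpc and Snrpn. In bulk RNA, fewer cells that express a gene and less RNA per cell cannot be told apart. The 52 rows together held 7913, 6406, 6131 and 5092 counts in replicates 1 to 4, which was 0.348% (95% Wilson interval 0.341 to 0.356), 0.303% (0.296 to 0.311), 0.278% (0.271 to 0.285) and 0.285% (0.277 to 0.293) of all counts. Replicate 1 had the highest share, above the intervals of the other libraries. These intervals cover counting error only and do not measure the spread between libraries. Without Hnrnpab, Hnrnpu and Sf3a2, whose rows have the largest counts, the other 49 rows held 0.188%, 0.158%, 0.133% and 0.159%.

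The families stood in a steady order by median level. The hnRNP median was 17.6, 14.6, 12.2 and 14.7 TPM in replicates 1 to 4, and the SR median was 11.0, 9.95, 5.51 and 8.57 TPM. The Snrp median was 7.63, 5.89, 3.72 and 7.34 TPM, and the SF3 median was 3.87, 4.46, 2.14 and 4.29 TPM. The median over all protein-coding rows was 0 in each library. On the log2(TPM + 1) scale the hnRNP median was above the SR median by 0.62, 0.50, 1.02 and 0.70, a mean of 0.71 ± 0.223 (SD, n = 4), so in all 4 libraries. With TMM-normalized CPM, which does not divide by exon length, the difference was 1.21.

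**Figure D1:**
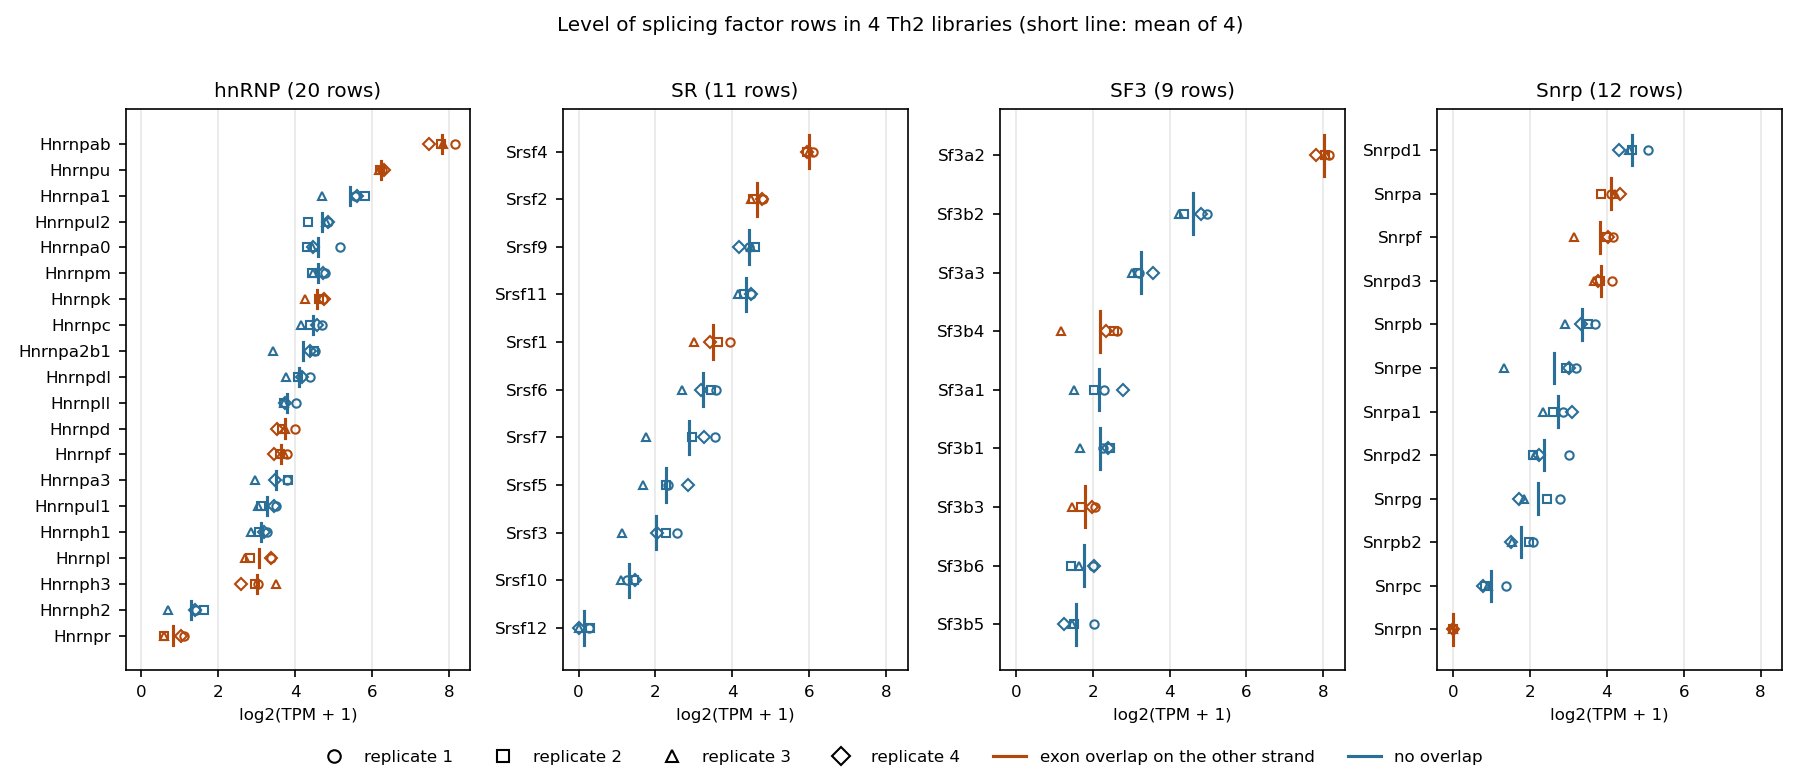
Level of each splicing factor row as log2(TPM + 1), by family, with 1 symbol per library (replicates 1 to 4) and a short line at the mean. Orange rows share exon bases with a row on the other strand and blue rows do not; Sf3a2 and Hnrnpab stand highest at 258 and 227 TPM on average, and Snrpn is at 0 in all libraries.

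The hnRNP rows covered the widest range of counts. Hnrnpab, an RNA-binding protein of the A/B type, had 283, 220, 228 and 179 TPM (1190, 870, 932 and 561 counts) in replicates 1 to 4, a mean of 227 ± 42.6 TPM (SD, n = 4). Hnrnpu, which binds RNA at chromatin and is also known as a scaffold attachment factor, had 75.7, 73.6, 72.1 and 78.2 TPM (1329, 1212, 1231 and 1022 counts), the most even of the higher rows at 74.9 ± 2.65 TPM. Both rows share exon bases with a row on the other strand. Hnrnpa1, a splicing repressor and the highest splicing factor row without such an overlap, had 45.8, 55.4, 25.2 and 48.1 TPM (133, 151, 71 and 104 counts), and replicate 3 lay below the other libraries. The mouse genome holds processed copies of Hnrnpa1, and the counting command lists no option to count read pairs that map to several places, so its level is uncertain. Hnrnpul2, a relative of Hnrnpu, had 27.9, 19.3, 26.7 and 28.1 TPM (242, 157, 225 and 181 counts).

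Hnrnpll stood at 15.2, 12.18, 12.05 and 12.24 TPM (268, 202, 207 and 161 counts) on chromosome 17, with no exon overlap on the other strand. Its mean was 12.9 ± 1.51 TPM (SD, n = 4), and its range overlapped those of Hnrnpd (12.4 ± 1.92 TPM) and Hnrnpf (11.5 ± 1.25 TPM). A small nuclear RNA row, Gm22215, lies opposite one of its introns and had 9, 4, 3 and 4 counts. The lowest hnRNP rows were Hnrnph2, a binder of G-rich RNA, with 11, 13, 4 and 8 counts (1.502 ± 0.624 TPM), and Hnrnpr with 39, 16, 17 and 26 counts over 22199 exon bases (0.807 ± 0.342 TPM). The hnRNP rows between Hnrnpul2 and Hnrnph2 ranged from 7.31 to 23.995 TPM on average. Hnrnpm, at 23.4 ± 2.95 TPM, shares 1169 exon bases on its own strand with March2, which had 0, 0, 2 and 0 counts.

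Among SR rows, Srsf4 stood above the rest. It had 67.7, 60.5, 62.6 and 60.1 TPM (365, 306, 328 and 241 counts) in replicates 1 to 4, and 43.0% of its exon bases overlap a row on the other strand. Srsf2, an SR protein needed for exon recognition in many transcripts, had 26.8, 22.1, 21.6 and 26.4 TPM (120, 93, 94 and 88 counts). Without an overlap, Srsf9 had 20.8, 23.0, 21.4 and 17.2 TPM (52, 54, 52 and 32 counts), and Srsf11 had 21.3, 18.8, 16.7 and 21.2 TPM (272, 226, 207 and 202 counts). The range of Srsf9 (20.6 ± 2.46 TPM) overlapped those of Srsf2 (24.2 ± 2.75 TPM) and Srsf11 (19.5 ± 2.21 TPM, SD, n = 4 each), and each Srsf2 value lay above each Srsf11 value.

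Srsf1, a founding SR protein whose loss in T cells of mice leads to autoimmune disease, had 14.2, 11.3, 7.02 and 9.64 TPM (123, 92, 59 and 62 counts). Replicates 1 and 2 were the higher libraries. The lowest SR rows were Srsf10, which represses splicing when dephosphorylated, at 1.42, 1.71, 1.16 and 1.77 TPM (15, 17, 12 and 14 counts), and Srsf12 with 1, 1, 0 and 0 counts, within the 3 counts that a count of 0 allows. Srsf6, Srsf7, Srsf5 and Srsf3 averaged 3.27 to 8.64 TPM, and replicate 3 had the lowest TPM of each of these 4 rows. Srsf7 had 37, 22, 8 and 22 counts and Srsf3 had 38, 28, 9 and 18 counts.

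Of the SF3 rows, Sf3a2 stood far above the rest. Sf3a2, a subunit of SF3a, had 280, 264, 266 and 222 TPM (1127, 996, 1041 and 664 counts), the highest mean of the 52 rows at 258 ± 25.2 TPM (SD, n = 4). Its partner subunit Sf3a3 had 8.30, 8.09, 7.08 and 10.8 TPM (35, 32, 29 and 34 counts), and Sf3a1 had 3.87, 3.09, 1.88 and 5.92 TPM (36, 27, 17 and 41 counts). The 3 subunits are parts of 1 complex, but their rows stood over a range of 3.69 to 258 TPM on average, and of them only Sf3a2 has an exon overlap on the other strand. Sf3b2, an SF3b subunit that contacts RNA near the branch point, had 30.3, 19.6, 18.1 and 27.2 TPM (148, 90, 86 and 99 counts).

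Sf3b1, the large SF3b subunit that holds the branch point helix and is often mutated in human myelodysplastic syndromes, had 3.78, 4.46, 2.21 and 4.29 TPM (65, 72, 37 and 55 counts) with no overlap. Sf3b4 had 17, 15, 4 and 10 counts (3.86 ± 1.80 TPM). The lowest SF3 rows were Sf3b6, the small protein that touches the branch point base, with 13, 7, 9 and 10 counts (2.498 ± 0.673 TPM), and Sf3b5 with 18, 10, 10 and 6 counts (2.02 ± 0.743 TPM). Sf3b3 lay between them and Sf3b1 at 2.53 ± 0.661 TPM. It overlaps 2 small nucleolar RNA rows on its own strand, Snord111 and Gm22193, which had 0 counts in all libraries.

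The Snrp rows had the fewest counts. Snrpd1, an Sm ring protein on chromosome 18, had 32.4, 24.4, 22.7 and 19.1 TPM (41, 29, 28 and 18 counts) with no overlap. Snrpa, the U1 protein that binds a stem loop of U1 RNA, had 16.3, 13.3, 17.4 and 19.2 TPM (73, 56, 76 and 64 counts). The Sm ring proteins Snrpf and Snrpd3 had 16.9, 14.7, 7.89 and 15.5 TPM (22, 18, 10 and 15 counts) and 16.7, 13.1, 11.7 and 12.6 TPM (87, 64, 59 and 49 counts). The ranges of Snrpa, Snrpf and Snrpd3 overlapped, with means of 16.5 ± 2.47, 13.7 ± 4.00 and 13.5 ± 2.20 TPM (SD, n = 4).

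The remaining members of the Sm ring, Snrpb, Snrpe, Snrpd2 and Snrpg, averaged 9.47, 5.87, 4.35 and 3.81 TPM, none with an exon overlap. Opposite an intron of Snrpg lies Gm44941, an antisense row with 43, 37, 37 and 19 counts, against 14, 10, 6 and 4 for Snrpg. The U2 proteins Snrpa1 and Snrpb2 averaged 5.75 and 2.49 TPM. Snrpc, the U1 protein that contacts the start of the intron, had 15, 7, 8 and 5 counts over 6217 exon bases (0.994 ± 0.406 TPM). Snrpn, an imprinted gene read from the paternal copy and best known from brain, had 0 counts in all 4 libraries, as did Snurf and Gm38393, which share its exons on the same strand, and the pseudogene Gm18908 on the other strand.

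Of the 52 splicing factor rows, 18 (34.6%) share at least 1 exon base with a row on the other strand, where 22.1% of all protein-coding rows do. These were 8 hnRNP, 3 SR, 3 SF3 and 4 Snrp rows. They met 21 opposite rows in 21 pairs, 11 of them protein-coding and 10 not, and shared 32 to 1532 bases with a median of 327. Rows with an overlap stood higher than those without: the difference of medians of log2(TPM + 1) was 0.66, 0.65, 0.90 and 0.42 in replicates 1 to 4, a mean of 0.66 ± 0.197 (SD, n = 4). The medians were 15.6, 12.3, 11.8 and 11.6 TPM with an overlap and 9.55, 7.50, 5.90 and 8.39 TPM without. Over all protein-coding rows the medians were 1.06 to 1.47 TPM with an overlap and 0 without in each library.

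The opposite row held the larger count in most of these pairs. In 11 of the 18 rows (61.1%) the rows opposite summed to more counts in every library, where 49.2% of protein-coding rows with an overlap had this. By family these were 4 of 8 hnRNP, 3 of 3 SR, 2 of 3 SF3 and 2 of 4 Snrp rows. In 6 of the 18 the opposite rows held fewer counts in every library (24.1% of protein-coding rows), and for Snrpn both strands were at 0. Per kilobase of exon, the opposite rows were denser in every library for 13 of 18, where 50.4% of protein-coding rows had this. The additional rows were Hnrnpu and Hnrnpr, whose opposite rows are short. The shares for protein-coding rows were taken over 4801 rows, many with few counts. At least 10 counts in every library were held by 2003 of them, but by 16 of the 18 splicing factor rows. Of the 4801, 2363 had more counts opposite in every library, 1155 had fewer and the rest had neither. The shares thus compare rows of unlike level, and an excess over other rows was not tested.

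**Figure D2:**
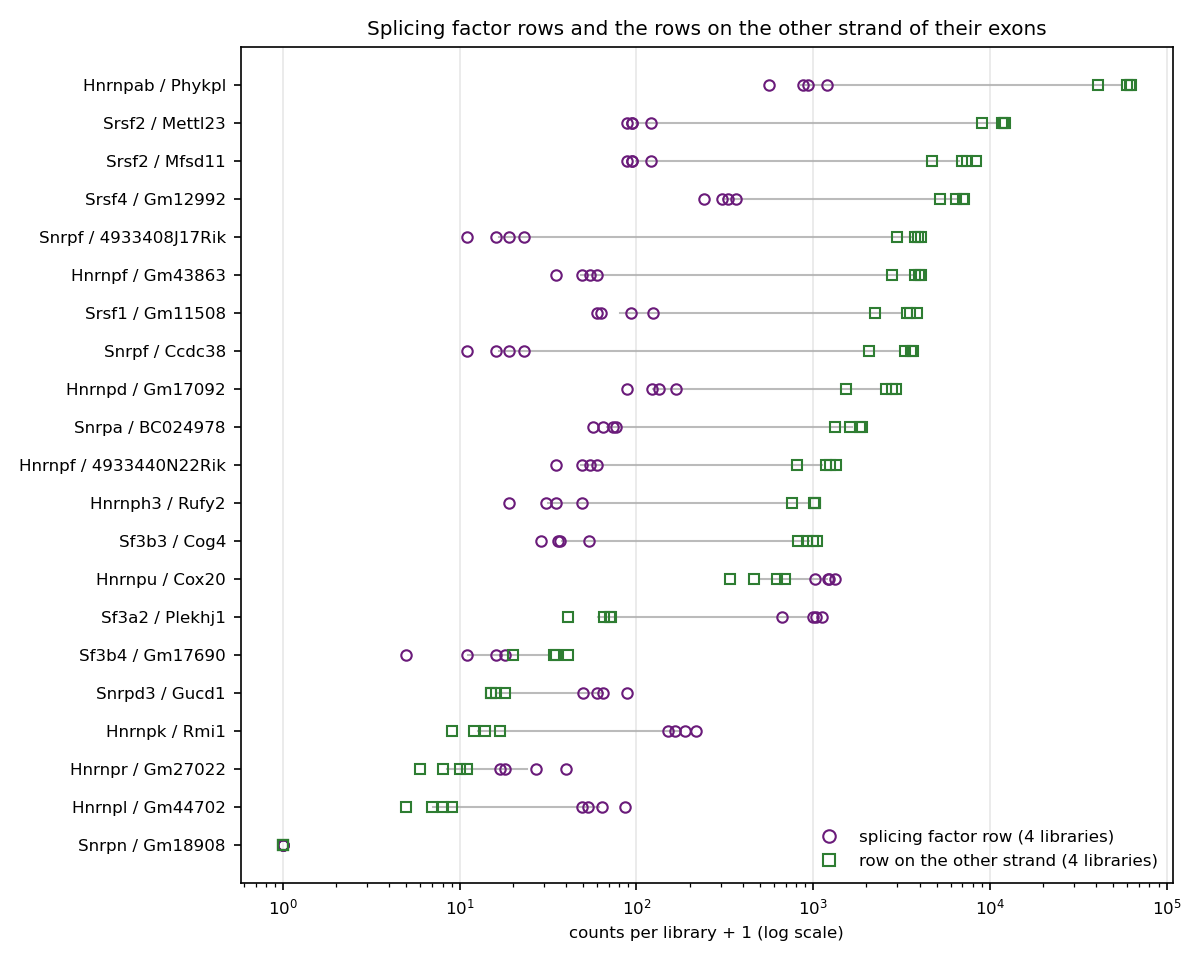
Counts per library plus 1, on a log axis, for the 21 pairs of a splicing factor row (purple circles) and a row on the other strand of its exons (green squares), ordered by the level of the opposite row. The squares lie to the right of the circles by the widest margins for Snrpf, Srsf2, Hnrnpf and Hnrnpab, and to the left for Hnrnpu, Sf3a2, Snrpd3, Hnrnpk, Hnrnpr and Hnrnpl.

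The arrangement of the pairs varied. Of 9 pairs that meet head to head, 6 had more counts in the opposite row in every library. So did 4 of 5 pairs that meet tail to tail and 3 of 6 pairs in which the opposite row lies inside the span of the splicing factor row. The 1 pair in which the splicing factor row lies inside its partner, Srsf2 and Mettl23, had it too. Shares by arrangement were not computed over all overlapping rows, so whether these tallies differ from those of other rows was not tested. There were 14 pairs that share at least 50 bases and have an opposite mean of at least 100 counts. All of these but Hnrnpu and Cox20 had, in every library, at least 16.7 opposite counts per count of the splicing factor row. Choosing pairs by a high opposite count itself favours such ratios, so they do not describe the other pairs. The same share over all overlapping rows was not computed.

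Hnrnpab and Phykpl overlap at their ends on chromosome 11 (Hnrnpab 51600100 to 51606847, reverse strand; Phykpl 51584757 to 51604489, forward strand; mm10). Phykpl encodes an enzyme that breaks down phosphorylated hydroxylysine. They share 809 exon bases, of which 719 fall in the 3′ untranslated region of Hnrnpab and 90 in its coding sequence, the stretch printed above. Hnrnpab had 1190, 870, 932 and 561 counts, against 62269, 59691, 62490 and 40815 for Phykpl. Phykpl averaged 4172 ± 297 TPM (SD, n = 4) and ranked number 4 among protein-coding rows in each library. The log2 ratio of counts per kilobase, Hnrnpab over Phykpl, was -3.91, -4.30, -4.26 and -4.38, a mean of -4.21 ± 0.210, lower in 4 of 4 libraries (p = 0.125, exact two-sided sign-flip test, the smallest p that 4 libraries allow). Any pair with the same sign in every library gives this p, so it adds nothing to the direction. Hnrnpab counts were 1.88%, 1.44%, 1.47% and 1.36% of those of the pair.

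Srsf2 lies among several rows on chromosome 11. Its row (116849901 to 116853094, reverse strand) sits inside the span of Mettl23 (116843278 to 116854263, forward strand), a methyltransferase gene, and meets Mfsd11 (116852440 to 116875635, forward strand), a gene of the major facilitator family of transporters, head to head. With Mettl23 it shares 460 bases, all in the 3′ untranslated region of Srsf2. With Mfsd11 it shares 288 bases, all in coding sequence, the stretch printed above that holds the RNP1 motif. Srsf2 had 120, 93, 94 and 88 counts, against 12256, 11738, 12081 and 9059 for Mettl23 and 8356, 6962, 7430 and 4694 for Mfsd11. Mettl23 averaged 3023 ± 37.9 TPM (SD, n = 4), so its level was steadier over the libraries than its counts. The log2 ratio of counts per kilobase, Srsf2 over Mettl23, was -6.80, -7.11, -7.13 and -6.81, a mean of -6.96 ± 0.181, lower in 4 of 4 libraries (exact two-sided sign-flip p = 0.125, again the smallest possible). Mettl23 and Mfsd11 share 257 exon bases on their own strand, so counts between them are uncertain. The other row opposite Mettl23, Jmjd6 (45, 23, 27 and 19 counts), meets it head to head over 172 bases.

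**Figure D3:**
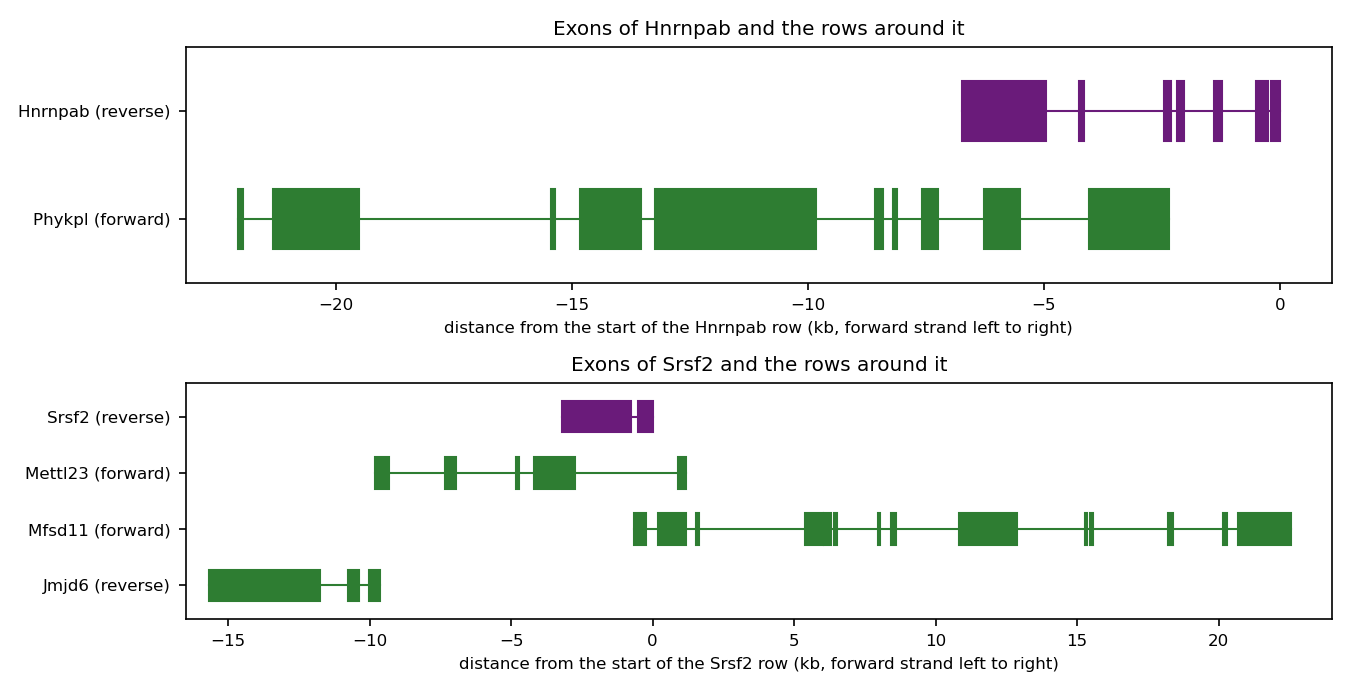
Exons of Hnrnpab with Phykpl (top) and of Srsf2 with Mettl23, Mfsd11 and Jmjd6 (bottom), as boxes to scale against the distance in kb from the start of the splicing factor row. Splicing factor rows are purple and rows around them green; the end of Phykpl runs into Hnrnpab over 809 shared exon bases, and Mettl23 and Mfsd11 share 460 and 288 with Srsf2.

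The other SR rows with an overlap, Srsf4 and Srsf1, had larger opposite rows as well. Srsf4 meets Gm12992, a processed transcript, tail to tail on chromosome 4 over 1532 bases, 895 of them in the coding sequence of Srsf4 and 637 in its 3′ untranslated region. Srsf4 had 365, 306, 328 and 241 counts, against 7012, 6435, 7141 and 5199 for Gm12992. The ratio was even across libraries, with 19.2, 21.0, 21.8 and 21.6 counts of Gm12992 per count of Srsf4. Srsf1 shares 98 coding bases, printed above, with the antisense row Gm11508, whose annotated span on chromosome 11 runs from 88011991 to 88048006. Srsf1 had 123, 92, 59 and 62 counts, against 3893, 3385, 3553 and 2225 for Gm11508, which has only 440 exon bases and so averaged 5310 ± 579 TPM (SD, n = 4). This was the highest level among the 21 opposite rows.

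In the hnRNP family, Hnrnpd, an AU-rich element binder, shares 385 bases with the antisense row Gm17092 inside it, 151 of them coding and printed above. Hnrnpd had 167, 121, 134 and 87 counts, against 2789, 2587, 2931 and 1537 for Gm17092. Hnrnpf, a binder of G-rich RNA, holds 2 short rows opposite its 5′ untranslated exons, both of the type to be experimentally tested. It had 59, 48, 54 and 34 counts, against 1347, 1174, 1247 and 813 for 4933440N22Rik and 4083, 3768, 3982 and 2777 for Gm43863. The log2 ratio of Hnrnpf to 4933440N22Rik was the steadiest of the named pairs, at -4.54 ± 0.0437 (SD, n = 4). Hnrnph3, related to Hnrnpf, shares 115 bases at its end with Rufy2, a gene of endosome traffic. Hnrnph3 had 34, 30, 48 and 18 counts, against 1029, 1019, 1012 and 758 for Rufy2.

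Among Snrp and SF3 rows, Snrpf is overlapped at both ends, over 65.9% of its exon bases by Ccdc38, a gene for a coiled-coil protein, and over 19.5% by the long noncoding row 4933408J17Rik. Snrpf had 22, 18, 10 and 15 counts, against 3668, 3292, 3580 and 2067 for Ccdc38 and 3939, 3790, 4080 and 2983 for 4933408J17Rik. These were the widest ratios of the 21 pairs, at -7.57 ± 0.586 and -7.83 ± 0.523 on the log2 scale of counts. Snrpa meets BC024978 head to head over 327 bases. It had 73, 56, 76 and 64 counts, against 1882, 1624, 1838 and 1337 for BC024978. Sf3b3 meets Cog4, a subunit of a Golgi tethering complex, over 188 bases, and had 53, 35, 28 and 36 counts, against 919, 1052, 995 and 820 for Cog4. Sf3b4 and the antisense row Gm17690 share 85 bases, and both were low, at 17, 15, 4 and 10 counts for Sf3b4 and 40, 34, 33 and 19 for Gm17690.

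The pairs with the larger count on the splicing factor side included Sf3a2, the highest row by mean TPM, and Hnrnpu, the row with the most counts. Hnrnpab, next to Sf3a2 by mean TPM, was not among them. Sf3a2 meets Plekhj1 head to head on chromosome 10 over 429 bases, all in untranslated sequence at the start of Sf3a2. Sf3a2 had 1127, 996, 1041 and 664 counts, against 65, 71, 70 and 40 for Plekhj1, a gene for a lipid-binding protein. Hnrnpu meets Cox20, an assembly factor of cytochrome c oxidase, tail to tail on chromosome 1 over 804 bases, which are 91.1% of the Cox20 exons. Hnrnpu had 1329, 1212, 1231 and 1022 counts, against 689, 622, 461 and 336 for Cox20, but per kilobase the log2 ratio of Hnrnpu to Cox20 was -2.48 ± 0.330 (SD, n = 4). Hnrnpk (217, 188, 149 and 164 counts, against 16, 11, 13 and 8 for Rmi1), Snrpd3 (87, 64, 59 and 49, against 17, 14, 15 and 14 for Gucd1), Hnrnpl (85, 52, 48 and 63, against 7, 8, 6 and 4 for Gm44702) and Hnrnpr (39, 16, 17 and 26, against 9, 10, 5 and 7 for Gm27022) made up the rest.

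Variation between replicates was tested over all rows with edgeR, as the fit of 1 mean per row with the dispersion of rows of like abundance. No splicing factor row passed at an adjusted p under 0.05, 0 of 39 tested, where 23 of 5064 rows (0.454%) did. At an unadjusted p under 0.05, 4 of 39 passed, where 5.13% of all rows tested did. They were Hnrnpa2b1 (edgeR adjusted p = 0.118), Hnrnpa1 (edgeR adjusted p = 0.537), Hnrnpab (edgeR adjusted p = 0.658) and Sf3a1 (edgeR adjusted p = 0.662). The filter on low counts can remove a row for 1 low library: Srsf3 and Srsf7, untested, had 9 and 8 counts in replicate 3 but more in total than some rows tested. With no filter, which includes them, 0 of 51 passed after adjustment in edgeR. With a common dispersion Hnrnpa2b1 was called, the only splicing factor row called under any alternative run. Hnrnpa2b1, a repressor of the same family as Hnrnpa1, had 22.0, 21.6, 9.81 and 20.1 TPM (219, 202, 95 and 149 counts), so replicate 3 alone was low.

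Splicing factor rows tended to be highest in replicate 1 and lowest in replicate 3. The highest CPM was in replicate 1 for 15 of 17 rows with an overlap and for 20 of 29 without, where it was for 825 of 2276 and 1138 of 2407 protein-coding rows. The median row stood at 122% of its own mean in replicate 1 with an overlap and 120% without, against 105% and 115% over protein-coding rows. Of the 29 rows without an overlap and with a mean of at least 10 counts, 21 had their lowest CPM in replicate 3, and none had its highest there. Relative to each row's own mean, the median row stood at 120%, 98.3%, 77.5% and 104% in replicates 1 to 4. The same was seen over all protein-coding rows without an overlap, of which 1445 of 2407 were lowest in replicate 3, with a median of 77.3% of the mean. Of the 17 splicing factor rows with an overlap, 9 were lowest in replicate 3 and 6 in replicate 4, at medians of 90.4% and 99.98%. Over protein-coding rows with an overlap, 696 of 2276 were lowest in replicate 3 and 1066 in replicate 4, at medians of 98.3% and 92.2%. All rows without an overlap held 7.53%, 6.88%, 5.48% and 6.67% of the counts in replicates 1 to 4, so replicate 3 had the smallest share. The ribosomal RNA row CT010467.1 held 4.53%, 3.25%, 5.02% and 15.9% and was highest in replicate 4. The part of these shares in the levels of splicing factor rows was not tested.

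**Figure D4:**
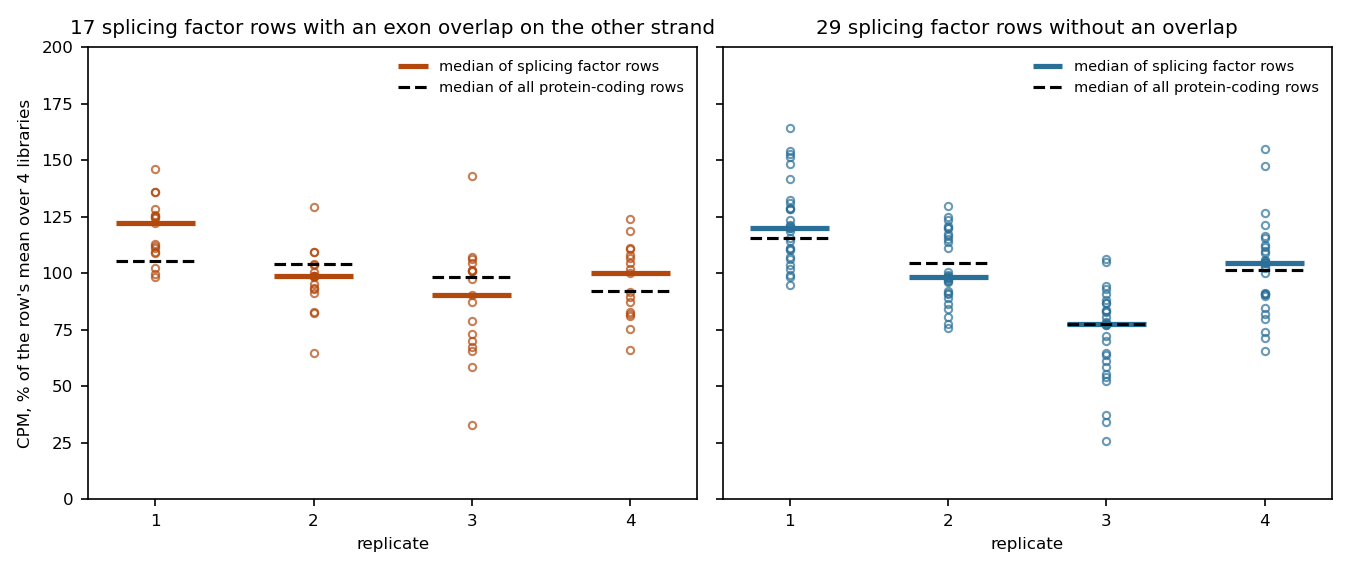
CPM of each splicing factor row in each library, as a percent of the row's mean over 4 libraries, for 17 rows with an exon overlap on the other strand (left) and 29 without (right); circles are rows, solid lines their medians and dashed lines the medians of all protein-coding rows of the same kind. Without an overlap the median falls at 77.5% in replicate 3, next to 77.3% for all protein-coding rows, and with an overlap at 90.4%, against 98.3%.

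Other genes of the splicing machinery were read the same way. There were 77 such genes, among them U2AF, the Prpf and Lsm proteins, helicases, kinases of SR proteins and further RNA-binding proteins. Of these, 63 reached 1 TPM in all libraries, where 21.8% of all protein-coding rows did, and none was without a count. Of the 77, 21 share exon bases with a row on the other strand, where 22.1% of all protein-coding rows do. In 11 of these 21 the opposite rows held more counts in every library, near the 49.2% of all protein-coding rows with an overlap. The highest were Rbm10 at 47.7 ± 5.197, Rbm25 at 42.4 ± 2.36, Pcbp1 at 38.1 ± 8.95 and Pcbp2 at 36.6 ± 6.47 TPM (SD, n = 4), RNA-binding proteins that act on exon choice or transcript stability. Each of these 4 has an overlap. Pcbp2 had 168, 172, 115 and 123 counts, against 22291, 21079, 23522 and 16464 for Gm26518 and Map3k12 opposite it, and Rbm10 had 308, 248, 255 and 177, against 17, 19, 21 and 19 for Ndufb11. Of 50 tested for variation between replicates, 0 passed at an adjusted p under 0.05 with edgeR (0.454% of all rows) and 8 at an unadjusted p under 0.05 (5.13% of all rows), led by the SR protein kinase Srpk2 (465, 324, 431 and 189 counts). The adjusted p of Srpk2 was 0.180 in edgeR.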

How the data were processed

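RNA-seq of mouse Th2 cells was deposited as 1 gene table for each of 4 libraries. The deposited values are raw counts per gene, in whole numbers, which the authors made with featureCounts 1.4.6-p4, per the file headers. The command sets strand to 1, keeps pairs whose ends both map, and sums exons within genes of GENCODE vM13 (mm10). The strand that the library kit marks is not given in the sources used here, so whether a count is on the sense or the antisense side of its gene was not tested. No option for pairs that map to several places or that overlap several genes is listed. The alignment file is named as STAR output; its version is not given in the sources used here. Exon length in base pairs, an other value, comes from the same deposited tables. The assay is labelled as total RNA, although its library protocol is one for polyadenylated RNA.

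Symbols, types and transcripts came from GENCODE vM21, with 224 of 50600 rows unmatched. TPM was computed from count and exon length over all rows, CPM from totals. Rows overlap where they share at least 1 exon base across strands; which bases are coding was read from vM21. RNP1 was searched in the translated coding sequence with 1 pattern that begins with arginine or lysine and then glycine. Wilson intervals (95%) and the floor of 3 counts cover counting error only, because without molecular identifiers read pairs are not separate molecules. For variation between replicates, a negative binomial model with only an intercept was fitted in edgeR 4.0.16 (with limma 3.58.1 under R 4.3.3), with TMM factors, rows kept by filterByExpr and trended dispersion. Its goodness of fit was adjusted over all rows by Benjamini-Hochberg at 0.05. The procedure was tested on counts simulated with the same dispersion for every row. That does not give its power for rows of other dispersion or with few counts. Single pairs were compared by exact sign flips over libraries, with a prior count of 0.5. Medians used log2(TPM + 1). Other software was DESeq2 1.42.0 (size factors), bedtools 2.31.1, Biopython 1.88 and, under Python 3.11.15, SciPy 1.17.1, numpy 2.4.6, pandas 2.3.3 and Matplotlib 3.10.9.

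Named rows are Phykpl, Hnrnpab, Mettl23 and Srsf2, the 4 highest and 2 lowest of each family by mean TPM, rows that share at least 50 exon bases with an opposite row of at least 100 counts on average, Hnrnpll, Srsf1, Sf3b1 and Snrpn, and the 4 highest of 77 other splicing genes. Further rows were named after their values were seen. The members, lists and tests were chosen with earlier results of these data known. Alternatives were TMM-normalized CPM, a pseudocount of 0.1, other filters, DESeq2 size factors, a common dispersion, totals without CT010467.1 and Gm42418, a prior count of 2, counts in place of counts per kb or the reverse, stricter overlaps, and leaving out each replicate. README files were not used, and some marker values are not reported here.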

Additional observations from a re-analysis of the deposited data

Results flagged for a closer look

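For 71 rows with 4 libraries each (51 splicing factor rows and 20 rows opposite them; the other splicing genes were not included), the gap of the highest or lowest library to the nearest other, divided by the range, was compared with Dixon's 95% critical value, which chance passes in about 1 of 20 groups. It was passed by 5 rows, which are splicing factor rows without an overlap across strands, the kind of which 34 were compared. Hnrnpa2b1 was lowest in replicate 3, at 9.81 TPM (95 counts), with the other libraries at 20.1 to 22.0. Hnrnpul2 was lowest in replicate 2, at 19.3 TPM (157 counts), with the others at 26.7 to 28.1. In replicate 1, Hnrnpll was highest at 15.2 TPM (268 counts; others 12.05 to 12.24), Hnrnpa0 at 35.3 TPM (143 counts; others 18.9 to 21.2) and Snrpd2 at 7.07 TPM (28 counts; others 3.23 to 3.73). None of these 5 passed edgeR's test of variation between replicates after adjustment over all rows. The cause was not tested.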

How the results depend on the processing

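In 51 of 58 alternatives the result kept its direction and its side of any threshold, with counts within 1.5 times and median differences within 1 SD of the value reported, and no result reversed. The count of all rows that varied between replicates (23) was 10 with DESeq2 size factors, 15 with no filter on low counts and 7 to 20 when a replicate was left out, with 12 without replicate 3 and 7 without replicate 4. Splicing factor rows called were 0 throughout, except for 1 (Hnrnpa2b1) with a common dispersion. With TMM-normalized CPM in place of TPM, the median of rows with an overlap minus that of rows without was 0.97 and the hnRNP minus SR difference 1.21, on the log2 scale. For these differences the leave-one-out ranges were 0.58 to 0.74 and 0.61 to 0.78. The 47 rows at 1 TPM became 47 to 48 when a replicate was left out, and the 11 rows with more counts opposite stayed 11. With TMM-normalized CPM in place of TPM the 47 became 50. At least 10 counts in every library were held by 40 of the 52 rows, and by 3697 of all 21764 protein-coding rows. With opposite rows that overlap no other row on that strand, 8 of 14 had more counts opposite. The log2 differences per kilobase, with a replicate left out, ranged from -4.31 to -4.16 for Hnrnpab and Phykpl and from -7.02 to -6.91 for Srsf2 and Mettl23, where 3 libraries allow no p below 0.25. These 2 differences were judged by direction alone. With counts in place of counts per kb they were -6.01 and -6.83, so the first changed in size. The cause of these changes was not tested. No paired analysis was possible because the labels give 1 group. Rows with few counts, such as Srsf12 and Snrpc, have wide counting error, and why their counts were low was not tested.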
